A study of Mus musculus with 6 samples.

Results

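The 8 genes described here, Myh6, Myl7, Myl4, Tnnt2, Tnni3, Actc1, Nppa and Sln, mark the heart muscle cells that lie in the wall of the pulmonary veins of mice. They were chosen by symbol, and all 8 are among the 19639 genes of the deposited count table. The values come from RNA sequencing of 6 pieces labelled mouse lung, 3 from RPM mice that received shThoc1 lentivirus and 3 from RPM mice that received shControl lentivirus. RPM is the field's name for a small cell lung cancer model with loss of Rb1 and Trp53 and raised Myc, which all 6 libraries share by their label. The labels do not give the alleles, the promoter that drives recombination, the age of the mice or the time after infection. Nothing in them ties a library to an animal, so the spread within a group, and every p-value, may be partly technical. The titles of shThoc1 replicates 2 and 3 share a first number, so those libraries may come from 1 animal, in which case n = 3 counts it more than once. With their counts summed to 1 library, the members' log2 fold changes had a median of 0.61 and none was called. The hairpin targets Thoc1, a subunit of the THO complex that couples transcription with the export of mRNA from the nucleus. The question put to the data is how the cardiac muscle transcripts of lung differ when Thoc1 is targeted.

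In mice, cardiomyocytes of atrial type extend from the left atrium along the pulmonary veins into the lung, where they form a contracting sleeve around the vessel. Atrial cardiomyocytes build their thick filaments from the alpha heavy chain (Myh6) with the atrial light chains (Myl7 and Myl4). Their thin filaments carry cardiac actin (Actc1) with cardiac troponin T (Tnnt2) and troponin I (Tnni3). They also make sarcolipin (Sln), a small inhibitor of the calcium pump, and atrial natriuretic peptide (Nppa), a hormone that lowers blood pressure. How much of this sleeve a piece of lung holds depends on how much large vein is in the piece, and vein muscle and atrial tissue taken along with the lung cannot be told apart by these genes. In bulk RNA, fewer cells of a type and less RNA per cell cannot be told apart.

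The total count ran from 9934583 to 15025199 per library. Thoc1 was at 53.4, 69.5 and 61.4 CPM (counts scaled to a common library size with TMM factors) in shThoc1 replicates 1, 2 and 3, against 85.7, 80.2 and 85.8 CPM in shControl replicates 1, 2 and 3, with no overlap (edgeR adjusted p = 0.304). Surfactant gene Sftpc had 1633 to 181268 counts, so lung epithelium was present in every library. shThoc1 replicate 2 stood apart in its tissue makeup. The 11 alveolar epithelial genes summed to 720 CPM there, against 7523 to 25470 CPM in the other libraries, and the 12 fat genes summed to 2955 CPM there, against 67.5 to 236.9 CPM in the others. Without it, the fold changes of the cardiac genes are given below as well.

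The sum of the cardiac transcripts was spread more widely over the shControl libraries than over the shThoc1 libraries. By gene, Nppa had the larger SD in shThoc1 (7.99 CPM, against 2.60 in shControl). That of Myh6 was about equal (37.5 CPM in shThoc1, 36.6 in shControl), and the other members had the larger SD in shControl. Added over the 8 genes, the level was 408, 302 and 259 CPM in shThoc1 replicates 1, 2 and 3, against 87.0, 28.3 and 534 CPM in shControl replicates 1, 2 and 3. The highest and the lowest library of all 6 were thus both controls. The highest was 1.58 times the lowest within shThoc1 and 18.9 times the lowest within shControl. The mean sum was 323 ± 76.9 CPM in shThoc1 and 216 ± 276 CPM in shControl (SD, n = 3 each).

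The atrial light chains of the thick filament had the order of this sum. Myl7, the atrial regulatory light chain, was at 54.3, 42.0 and 35.1 CPM in shThoc1 replicates 1, 2 and 3, against 7.07, 0.159 and 79.2 CPM in shControl replicates 1, 2 and 3. Myl4, the atrial essential light chain, was at 49.4, 45.3 and 28.2 CPM in shThoc1, against 9.24, 2.95 and 90.3 CPM in shControl. For both light chains shControl replicate 3 was highest, the 3 shThoc1 libraries lay close together below it, and shControl replicates 1 and 2 were lowest. Myh6, the fast alpha heavy chain, was at 86.2, 11.8 and 56.5 CPM in shThoc1, against 20.7, 1.35 and 72.1 CPM in shControl. It differed from the light chains at the top, where shThoc1 replicate 1 lay above shControl replicate 3, and in shThoc1 replicate 2, which lay below shControl replicate 1.

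The thin filament genes had the same order as the light chains. Actc1, which codes for cardiac alpha actin, had the highest CPM of the 8 in every library, at 129.6, 110.2 and 84.85 CPM in shThoc1 replicates 1, 2 and 3, against 34.6, 17.2 and 147 CPM in shControl replicates 1, 2 and 3. Tnnt2, which anchors the troponin complex to tropomyosin, was at 35.9, 29.0 and 23.8 CPM in shThoc1, against 9.10, 2.79 and 54.0 CPM in shControl. Tnni3, the inhibitory troponin subunit of adult heart, was at 39.7, 29.7 and 25.3 CPM in shThoc1, against 4.69, 3.58 and 54.6 CPM in shControl. In each of these 3 genes the shThoc1 libraries fell between shControl replicate 3 and shControl replicate 1, so that the groups overlapped.

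**Figure D1:**
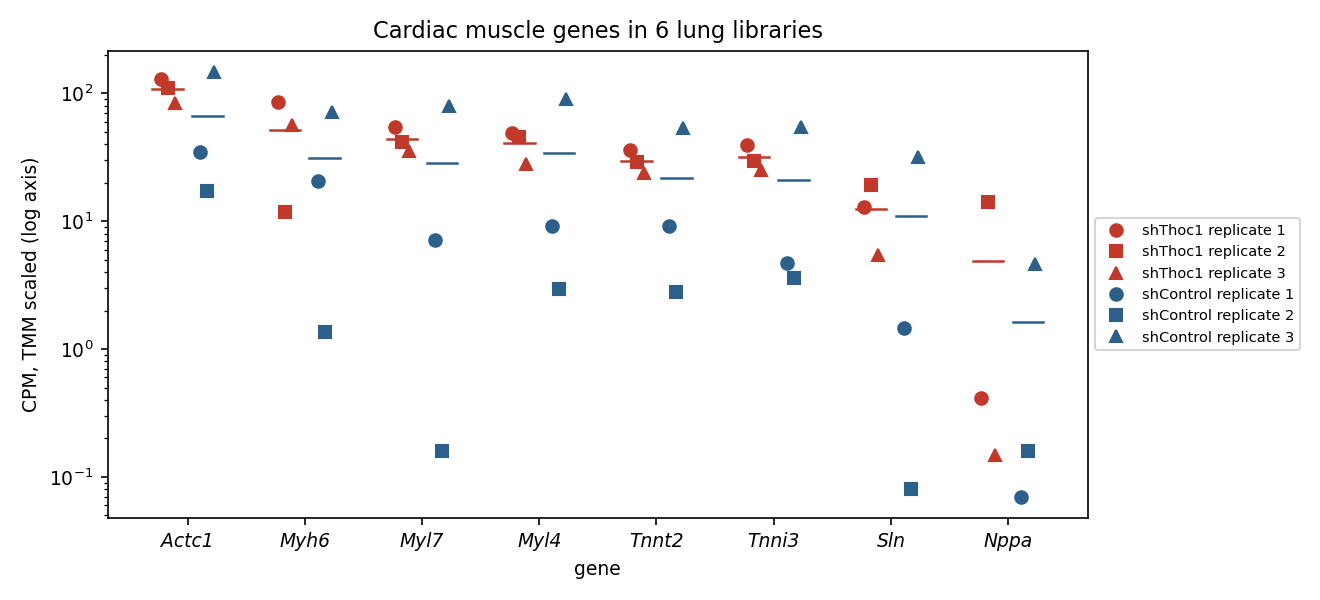
CPM of each of the 8 genes in the 6 libraries, on a log axis; each point is 1 library and the short lines are group means. The shControl points spread from 28.3 to 534 CPM in the sum of the 8 genes, on both sides of the shThoc1 points at 259 to 408 CPM.

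The membrane and secreted products were less uniform. Sln was at 12.9, 19.4 and 5.42 CPM in shThoc1 replicates 1, 2 and 3, against 1.47, 0.0797 and 31.7 CPM in shControl replicates 1, 2 and 3. Its order was that of the light chains, except that shThoc1 replicate 2 lay above shThoc1 replicate 1. Nppa was at 0.417, 14.1 and 0.149 CPM in shThoc1, against 0.0700, 0.159 and 4.61 CPM in shControl. These are 6, 143 and 2 counts in shThoc1 and 1, 2 and 63 counts in shControl, so that only shThoc1 replicate 2 and shControl replicate 3 held more than a few Nppa reads. Nppa was thus nearly absent from shThoc1 replicates 1 and 3, which had 781 and 473 counts of Myl7.

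Levels of different genes were compared per kilobase of exon, with exon lengths from GENCODE M21, an annotation of an older build than the authors used. On this scale Myl7 averaged 74.2 ± 16.4 CPM per kilobase in shThoc1 and 48.9 ± 74.2 in shControl. Actc1 averaged 73.5 ± 15.2 CPM per kilobase in shThoc1 and 45.1 ± 47.9 in shControl. Myh6, with the longest transcript, averaged 8.42 ± 6.13 CPM per kilobase in shThoc1 and 5.14 ± 5.98 in shControl (SD, n = 3 each). Among the shThoc1 means the order was Myl7, Actc1, Tnni3, Myl4, Tnnt2, Sln, Myh6 and Nppa, and most neighbours in it, such as Myl7 and Actc1, did not differ by more than their SD.

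Of the 8 genes, 7 had enough counts to be tested and Nppa did not. edgeR's quasi-likelihood test called 0 of the 7 higher in shThoc1 and 0 lower, at an adjusted p under 0.05. Over all 15287 genes tested it called 0 higher (0%) and 0 lower (0%), so the count of members says nothing particular about them. None of the 7 had an unadjusted p under 0.05, against 1060 higher and 1413 lower genes over the whole set, and DESeq2 and limma with sample weights, which called 929 and 6853 genes of the whole set, called none of the 7 either. All 7 log2 fold changes were positive (median 0.59), beside a median of 0.03 and 52.1% above 0 over all tested genes. The 7 genes come from the same libraries and mostly share 1 order of them, so their signs are not independent. Myh6 was at 51.5 ± 37.5 CPM in shThoc1 and 31.4 ± 36.6 CPM in shControl, with a log2 fold change of 0.71, an SE of 1.28 and an adjusted p of 0.7705. Actc1 was at 108 ± 22.4 CPM in shThoc1 and 66.4 ± 70.6 CPM in shControl, with a log2 fold change of 0.71, an SE of 0.77 and an adjusted p of 0.634. The smallest was that of Sln, at 12.6 ± 6.97 CPM in shThoc1 and 11.1 ± 17.9 CPM in shControl, with a log2 fold change of 0.18, an SE of 1.59 and an adjusted p of 0.955 by edgeR (means ± SD, n = 3 each). For Myl7, Tnni3, Tnnt2 and Myl4 the log2 fold changes were 0.60 (SE 1.51), 0.59 (SE 1.05), 0.43 (SE 0.99) and 0.26 (SE 1.15), with adjusted p from 0.770 to 0.907 by edgeR. Each SE was larger than its fold change, and the groups overlapped for 8 of 8 genes, while 21.6% of tested genes had groups that did not overlap. The authors' deposited table gives log2 fold changes of 0.16 to 0.69 for the 7 genes and 1.57 for Nppa. Its adjusted p is under 0.05 for none of the 7, for which it runs from 0.635 to 0.959, and for 5.72% of the genes to which it gives one.

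The size of the fold changes rested on single control libraries. Without shControl replicate 3 the median log2 fold change was 2.74, and without shControl replicates 1 or 2 it was 0.04 or 0.05, over 8 genes since Nppa then passed the filter too. In both of those fits Myl4, Tnnt2 and Sln lay below 0. Without shThoc1 replicate 2, the library rich in fat genes, the median was 0.56, and Myh6 was at 1.12 while Sln was at -0.34. None of these fits called any member.

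**Figure D2:**
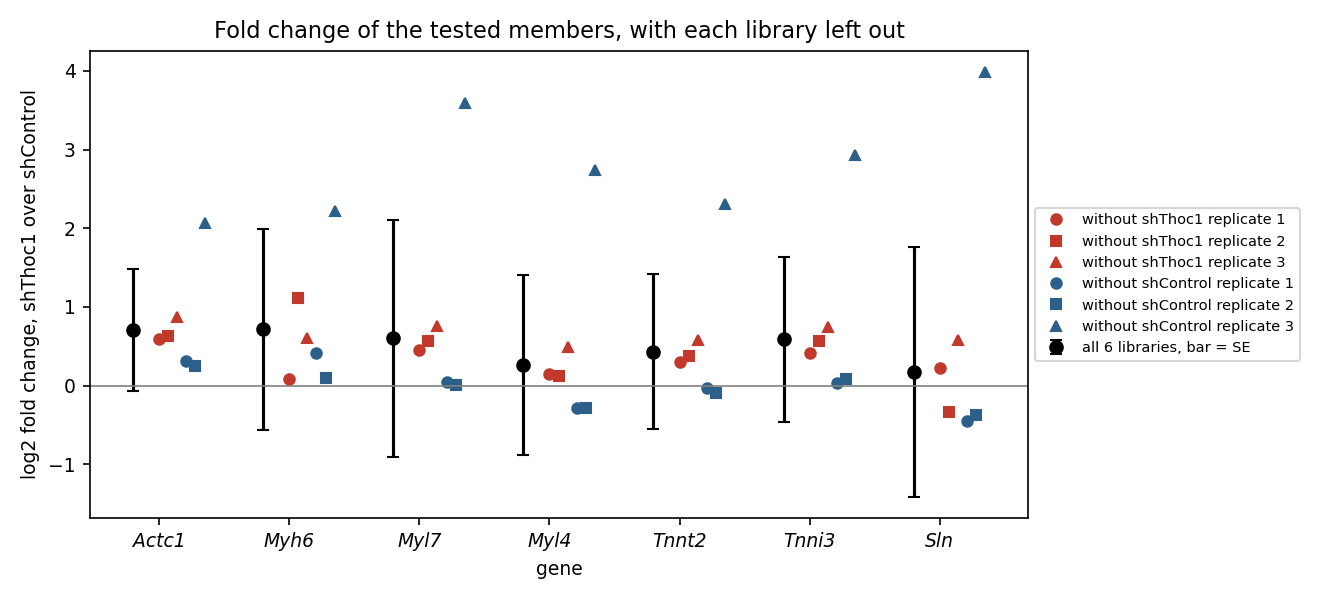
log2 fold change, shThoc1 over shControl, of the 7 tested genes with all libraries (black, bar = SE) and with each library left out (coloured). Leaving out shControl replicate 3 moves every gene up, to a median of 2.74, and leaving out shControl replicate 1 or 2 moves every gene down.

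Some proportions between the cardiac genes varied less than their amounts. Taken against Tnnt2 of the same library, Myl7 was at a ratio of 1.51 (95% interval 1.35 to 1.69), 1.45 (1.24 to 1.68) and 1.48 (1.28 to 1.71) in shThoc1 replicates 1, 2 and 3. In shControl replicates 1, 2 and 3 it was 0.777 (0.593 to 1.02), 0.0571 (0.00666 to 0.222) and 1.47 (1.34 to 1.61). These intervals are exact and cover counting error only. The 3 shThoc1 libraries and shControl replicate 3 thus had overlapping intervals for Myl7 to Tnnt2, although their Tnnt2 ran from 23.8 to 54.0 CPM. The Tnni3 ratio was 1.02 to 1.10 in shThoc1 and 0.515, 1.29 and 1.01 in shControl, while the CPM of Tnni3 differed 15.2-fold between the highest and the lowest library. The Actc1 ratio was 3.57 to 3.80 in shThoc1 and 3.80, 6.17 and 2.73 in shControl. By value shControl replicate 2 lay above the others. Its interval (4.30 to 9.09) overlapped those of shControl replicate 1 (3.13 to 4.65) and shThoc1 replicate 2 (3.34 to 4.33). The interval of shControl replicate 3 (2.51 to 2.97) lay below all others.

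The ratios of Myl7, Tnni3 and Actc1 thus departed in shControl libraries, with that of Myl7 in shControl replicate 2 the farthest, while those of Myh6, Nppa and Sln departed in shThoc1 replicate 2 as well. The Myh6 ratio to Tnnt2 was 2.40 and 2.38 in shThoc1 replicates 1 and 3 and 2.28 in shControl replicate 1. It was 1.34 (1.21 to 1.47) in shControl replicate 3, 0.486 (0.255 to 0.891) in shControl replicate 2 and 0.405 (0.324 to 0.502) in shThoc1 replicate 2. The Nppa ratio was 0.486 (0.395 to 0.596) in shThoc1 replicate 2 and 0.0855 (0.0650 to 0.111) in shControl replicate 3. It was 0.0116 and 0.00625 in shThoc1 replicates 1 and 3 and 0.00769 in shControl replicate 1. In shControl replicate 2 it was 0.0571 (0.00666 to 0.222), on 2 counts of Nppa, an interval that spans that of shControl replicate 3. The Sln ratio was 0.667 (0.554 to 0.801) in shThoc1 replicate 2 and 0.588 (0.521 to 0.662) in shControl replicate 3. These lay above 0.360, 0.228 and 0.162 in shThoc1 replicates 1 and 3 and shControl replicate 1, and 0.0286 (0.000704 to 0.17) in shControl replicate 2. shThoc1 replicate 2 thus combined the lowest Myh6 ratio with the highest Nppa and Sln ratios. By value, the libraries with the highest Nppa and Sln ratios were also those with the most fat transcripts. For Nppa, shControl replicate 3 was not set apart from shControl replicate 2, the library with the lowest sum of fat genes. That sum was 136, 2955 and 111.9 CPM in shThoc1 and 80.7, 67.5 and 236.9 CPM in shControl. Cfd, a secreted protease of fat cells, had 23, 5891 and 41 counts in shThoc1 and 14, 7 and 673 counts in shControl. Ucp1, the uncoupling protein of brown fat, had 6, 3657 and 1 counts in shThoc1 and 2, 1 and 8 counts in shControl. The part of other tissue in these ratios was not tested.

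**Figure D3:**
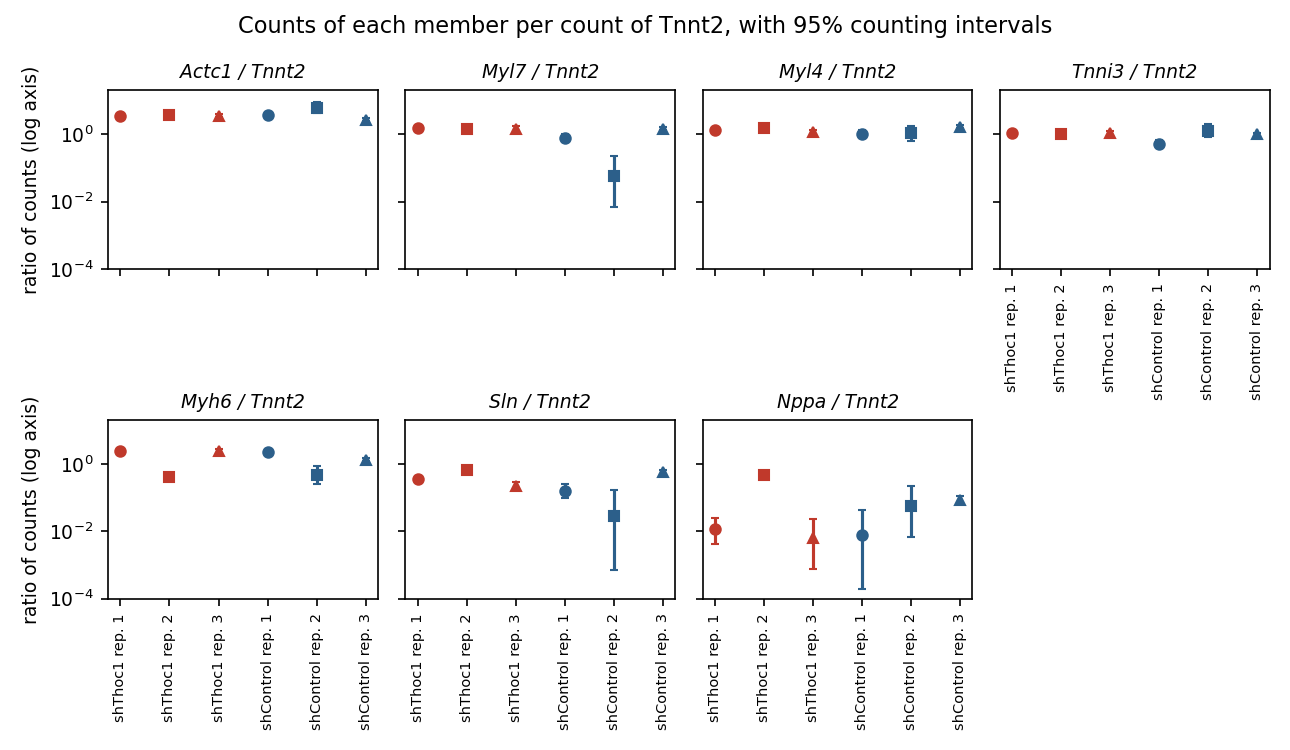
Counts of 7 genes divided by the counts of Tnnt2 in the same library, on a log axis with exact 95% counting intervals; red is shThoc1 and blue shControl. The Myl7 ratio is 1.45 to 1.51 in the 3 shThoc1 libraries and 1.47 in shControl replicate 3, while the Myh6 ratio is low in shThoc1 replicate 2 and shControl replicate 2 and the Nppa ratio is highest in shThoc1 replicate 2.

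shControl replicate 2 was nearly without Myl7, Sln and Nppa, but not without the atrial light chain Myl4. It had 2 counts of Myl7, 1 of Sln, 2 of Nppa and 17 of Myh6, against 101 to 1082 counts of Myl7 in the other libraries. It still had 216 counts of Actc1, 45 of Tnni3, 37 of Myl4 and 35 of Tnnt2. Its ratio of Myl4 to Tnnt2 was 1.06, beside 1.02 in shControl replicate 1. Actc1 made up 60.85% (55.55% to 65.95%, exact 95% interval) of its 355 reads of the 8 genes, against 27.6% to 39.8% in the other 5. Genes with at most 3 counts in shControl replicate 2 and at least 100 in another library, a rule set after the values were seen, were 3 of the 8 members (Myl7, Nppa and Sln) and 0.601% of the whole table. They included 4 of 20 other sarcomere genes (Myom2, Csrp3, Myoz2 and Mybphl), 4 of 10 muscle energy genes (Mb, Ckm, Ckmt2 and Cox8b), 3 of 12 fat genes and 1 of 16 heart transcription factors (Shox2). Nppa, Cox8b, Shox2 and these fat genes had few counts in other libraries too, so the rule does not single out shControl replicate 2 for them. The whole table also holds genes that never reach 100 counts, whereas each of the 8 members does. Ckm, the muscle creatine kinase, had 127, 71 and 69 counts in shThoc1 and 13, 0 and 179 counts in shControl. Mb, which codes for the oxygen store myoglobin, had 341, 197 and 47 counts in shThoc1 and 37, 1 and 598 counts in shControl.

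Most close relatives of the 8 genes that are typical of ventricle or skeletal muscle were low in all libraries. Myl2, the regulatory light chain of ventricle, had 1, 0 and 0 counts in shThoc1 and 0, 2 and 0 counts in shControl, where Myl7 reached 1082. Myl3, the ventricular essential light chain, had 35, 6 and 19 counts in shThoc1 and 4, 2 and 40 counts in shControl. Skeletal actin Acta1 had 2, 9 and 0 counts in shThoc1 and 20, 1 and 6 counts in shControl. The slow skeletal troponin I gene Tnni1 had at most 7 counts in any library. The fast skeletal genes Tnni2 and Tnnt3 were low except in shThoc1 replicate 2, with 71 and 216 counts there against 5 to 15 and 7 to 25 counts elsewhere. Tnnt1 had 17 to 20 counts in shThoc1 and 15 to 17 in shControl. Nppb, the sister hormone of Nppa, had 1, 10 and 0 counts in shThoc1 and 1, 2 and 1 in shControl. Myl1, a light chain of fast skeletal muscle, had 22, 55 and 11 counts in shThoc1 and 12, 0 and 84 counts in shControl.

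Myh7, the slow heavy chain, had 545, 60 and 446 counts in shThoc1 and 166, 169 and 262 counts in shControl. Its ratio to Myh6 was 0.439, 0.504 and 0.587 in shThoc1, against 0.561, 9.94 and 0.266 in shControl. The pair thus kept a ratio under 1 in 5 libraries and parted in shControl replicate 2, which had 17 counts of Myh6 and 169 of Myh7. Actins and the alpha and beta heavy chains are near copies of each other, so how the authors' counting split shared reads could move single values of Actc1 and Myh6. Acta2, the actin of vascular smooth muscle, had 2789 to 5050 counts in shThoc1 and 3902 to 7892 counts in shControl, with the most in shControl replicate 2.

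Other genes of the cardiomyocyte were taken from lists by role. Of the further sarcomere genes, 13 of the 19 tested were above 0 on the log2 fold change scale (median 0.21), and 0 were called. Without shControl replicate 3 this median was 1.34, and without shControl replicate 1 or 2 it was -0.01 or -0.02. The most abundant of them, tropomyosin Tpm1, the nebulin relative Nebl and the M-band gene Myom1, are also used outside heart. Tpm1 was at 316, 275 and 324 CPM in shThoc1, against 236, 700.1 and 287 CPM in shControl, and so was highest where the cardiac genes were lowest. Among calcium genes 4 of 10 were above 0, with a median of -0.37. The pump gene Atp2a2, the exchanger gene Slc8a1 and the channel gene Cacna1c led this list, and Atp2a2 averaged 243 ± 32.6 CPM in shThoc1 and 352 ± 90.8 CPM in shControl (SD, n = 3 each). Muscle energy genes were above 0 in 10 of 10, with a median of 0.69, and of 2.93 without shControl replicate 3 and 0.22 without shThoc1 replicate 2. They were led by the fatty acid carrier Fabp3, the enolase Eno3 and Mb. Fabp3 was at 20.3, 55.3 and 12.2 CPM in shThoc1, against 7.56, 4.86 and 35.6 CPM in shControl. For 5 of these 10 energy genes the highest library was shThoc1 replicate 2, where fat genes were high as well. All counts here are read against 52.1% above 0 and 0 called over all tested genes. Genes of a list come from the same libraries and are not independent of each other.

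Receptors, channels and regulators of the heart had orders of their own. Genes of natriuretic peptide processing and reception were above 0 in 4 of 5 tested, with a median of 0.25. The processing enzyme Pam and the receptors Npr3 and Npr1 led them, and Npr1 was at 184.5, 18.3 and 171 CPM in shThoc1, against 42.8, 62.9 and 40.3 CPM in shControl. Lung endothelium expresses Npr1 too, and the 7 endothelial genes, with Pecam1, Cdh5 and Vwf the most abundant, summed to 2640, 243 and 2157 CPM in shThoc1, against 825, 1132 and 652 CPM in shControl. Gap junction and channel genes were above 0 in 5 of 10, with a median of -0.30, led by Gja5, Kcnk3 and Cacna1d. Heart transcription factors were above 0 in 6 of 10 tested, with a median of 0.04, and the most abundant, Mef2a, Mef2c and Nr2f2, work in many cell types. Nkx2-5, a factor of cardiomyocytes that was named after its values were seen, had 0 to 2 counts per library. None of these genes was called.

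Other sarcomere genes often had the members' order of libraries. shControl replicates 1 and 2 were the lowest pair and shControl replicate 3 the highest for 6 of the 7 tested members, 11 of 19 other sarcomere genes, 4 of 10 energy genes and 3 of 10 calcium genes. The same order held for 0.831% of all tested genes. It was read from the members, so their own count is a description. The genes whose log2 level over the 6 libraries was most like the mean of the 8, out of 14352 ranked by Pearson's r, were Ckm (0.996), Tnnc1 (0.996), Smpx (0.993), Pln (0.991), Efcab6 (0.99), Zfp354b (0.99), Csrp3 (0.989), Bche (0.987), Chchd10 (0.986) and Armh1 (0.986). With 6 libraries high values are common, and the 99th percentile of the ranked genes was 0.878. Of these 10, 5 stand in one of the muscle lists, and those 5 spanned 3.77 to 4.77 log2 units between libraries, against 0.59 to 1.36 for the other 5. Of the first 50 ranked, 13 stand in a muscle list, as do 69 of all 14352, so most of the 50 are not listed muscle genes. Tnnc1, cardiac troponin C, was at 13.9, 12.7 and 6.84 CPM in shThoc1, against 2.94, 0.637 and 24.2 CPM in shControl. Pln, which codes for phospholamban, the pump inhibitor related to sarcolipin, was at 16.0, 13.1 and 5.94 CPM in shThoc1, against 2.45, 0.558 and 19.3 CPM in shControl.

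**Figure D4:**
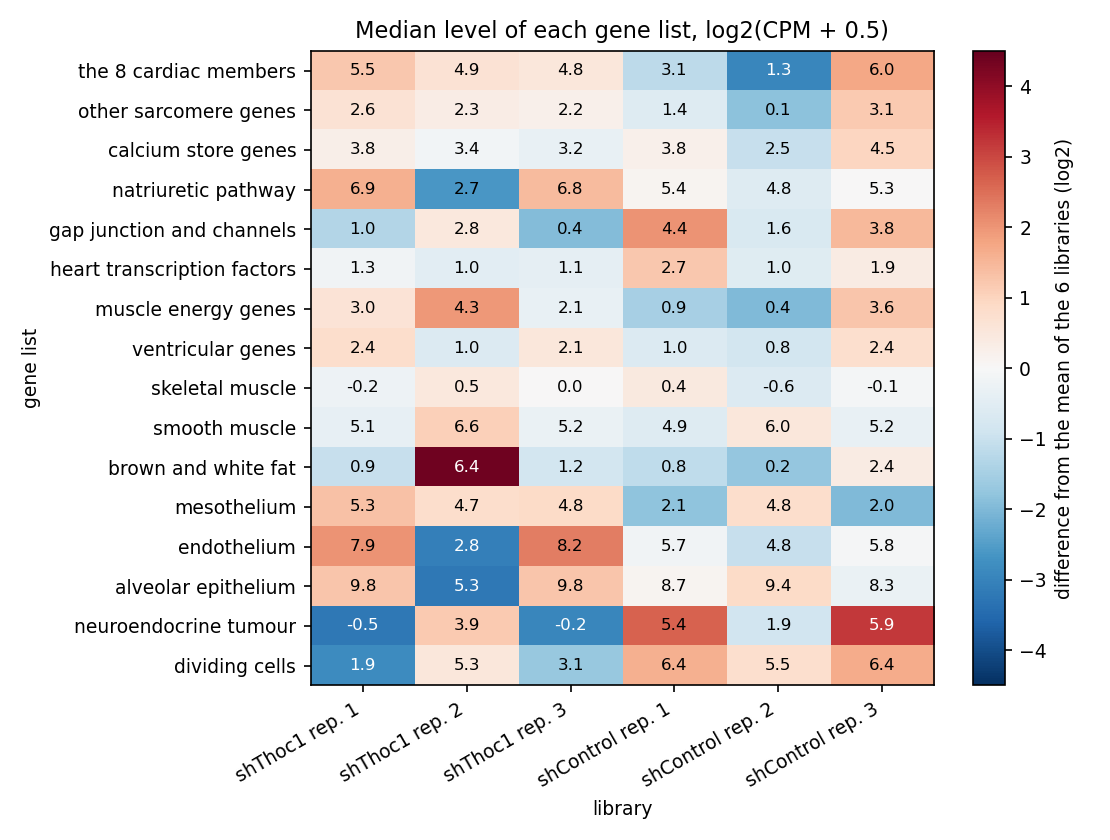
Median log2(CPM + 0.5) of the 8 genes and of each list in every library (numbers), coloured by the difference from the mean of the 6 libraries. The 8 genes and the other sarcomere genes are lowest in shControl replicate 2, at 1.3 for the 8 genes, while the fat row is highest in shThoc1 replicate 2.

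Among the lists of other cells in the lung, the tested fat genes most often had the members' lowest pair of libraries. Skeletal muscle genes, led by Tnnt3, Mybpc2 and Myl1, were above 0 in 4 of 8 tested with a median of 0.02, and of -0.53 without shThoc1 replicate 2. Their sum ran from 10.6 to 45.5 CPM in shThoc1 and from 12.6 to 20.7 CPM in shControl. Myh2, Myh4 and Myod1 of this list, and Irx4 of the ventricular list, had no row in the count table used here. Genes listed as ventricular, of which Myh7, Hey2 and Myl3 were the most abundant, were above 0 in 3 of 3 with a median of 0.40. Smooth muscle genes, led by Acta2, Tagln and Mylk, were above 0 in 6 of 9 with a median of 0.50, and summed to 828 to 1528 CPM in shThoc1 and 786 to 1454 CPM in shControl. Mesothelial genes, led by Krt19, Gpm6a and Msln, were above 0 in 9 of 10 with a median of 1.24, and of 2.91 without shControl replicate 2. Endothelial genes were above 0 in 7 of 7, with a median of 1.33. Fat genes, led by Fabp4, Cfd and Ucp1, were above 0 in 7 of 7 tested with a median of 3.09, and at -0.44 without shThoc1 replicate 2. All 7 tested fat genes, like all 7 tested members, were lowest in shControl replicate 2, against 10.4% of all tested genes. Most of the fat genes that failed the filter were not lowest there, and they had few counts in most libraries. shControl replicates 1 and 2 were the lowest pair for 6 of 7 tested fat genes and 6 of 7 tested members (85.7% each), against 6.1% of all tested genes. They were also the lowest pair for 8 of 10 energy genes, 4 of 9 smooth muscle genes and 1 of 3 ventricular genes. In the skeletal, mesothelial, endothelial, alveolar, neuroendocrine and dividing lists this held for 0 tested genes. By their sum, the fat genes had the members' order of libraries apart from shThoc1 replicate 2, where they were highest. Outside shThoc1 replicate 2 and shControl replicate 3, however, Fabp4 and Lipe made up most of that sum, so its order there is mainly theirs. In shControl replicate 2 they were at 37.9 and 21.1 CPM of a sum of 67.55 CPM. Alveolar genes, led by Sftpc, Sftpa1 and Sftpb, were above 0 in 11 of 11 with a median of 0.53. Neuroendocrine genes, led by Uchl1, Syp and Ncam1, were above 0 in 0 of 11, with a median of -2.93, and genes of dividing cells, led by Mki67, Top2a and Ccnb1, in 0 of 10, with a median of -2.08. Without shThoc1 replicate 2 these medians were -7.05 and -3.73. The neuroendocrine sum was 21.5, 194 and 23.0 CPM in shThoc1 and 757, 82.9 and 740.0 CPM in shControl, so shControl replicates 1 and 3, far apart in cardiac genes, were alike in it. edgeR called 0 genes of any list. The part of tissue makeup in the levels of the cardiac genes was not tested.

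Promoter sequences, from RefSeq on build GRCm38.p6, were at hand for 7 of the 8 genes: Myh6, Myl7, Myl4, Tnnt2, Tnni3, Actc1 and Nppa. They were searched on both strands, over the 250 bases before the start, for short motifs of heart regulators. The 3 below are shown as examples with and without an exact match to the CArG box, the site of serum response factor. Myl7 and Actc1 hold an exact match and had the same order of libraries, though not the same ratio in each. Nppa holds no exact match and had another order, but Myl4, Tnnt2 and Tnni3 hold none either and had the order of Myl7 and Actc1. Whether any motif bears on the order of libraries was not tested. Capitals mark every match to a searched motif, and all read 5′ to 3′ in the direction of the gene.

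Myl7, 150 bases before the start, chr11:5898783-5898932, minus strand: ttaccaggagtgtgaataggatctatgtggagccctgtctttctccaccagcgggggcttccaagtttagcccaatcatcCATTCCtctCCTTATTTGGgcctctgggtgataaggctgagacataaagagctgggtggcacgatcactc

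Actc1, 150 bases before the start, chr2:114052876-114053025, minus strand: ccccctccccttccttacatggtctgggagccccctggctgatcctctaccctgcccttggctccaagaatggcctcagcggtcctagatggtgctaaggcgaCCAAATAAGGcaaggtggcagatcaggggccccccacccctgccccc

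Nppa, 250 bases before the start, chr4:148000472-148000721, plus strand: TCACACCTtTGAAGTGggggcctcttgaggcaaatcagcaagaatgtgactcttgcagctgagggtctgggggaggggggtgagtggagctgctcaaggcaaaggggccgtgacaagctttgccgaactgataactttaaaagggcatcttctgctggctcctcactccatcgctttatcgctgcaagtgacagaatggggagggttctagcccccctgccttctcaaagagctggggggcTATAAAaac

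An exact CArG box was found in 2 of 7 members, in Myl7 at 61 to 52 bases and in Actc1 at 47 to 38 bases before the start. It was in 1.47% of all 32851 promoters of the table. The TEAD motif CATTCC was found in Myh6, Myl7 and Tnnt2, and in 12.6% of all promoters. The T-box motif AGGTGTGA was found in Tnni3 and Nppa, and in 1.12% of all promoters. In Nppa it lies next to a match to the NKX2-5 motif TNAAGTG, which 10.1% of promoters hold. The GATA motif AGATAA was found in Tnnt2 and in 9.99% of promoters, and TATAAA in Nppa and in 12.4%. The MEF2 site was in none of the 7 and in 2.92% of all promoters. Myl4 held no match to any of these, and Tnnt2 has 2 promoters in the table. A match is a run of letters, not a measured site, and near matches were not searched.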

How the data were processed

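The values are a raw count for each gene in each of 6 libraries, as deposited by the authors. Total RNA went through RNeasy purification before NEBNext Ultra library preparation, per the labels' protocols. The genome build is GRCm39 in the submitters' processing notes, while the sources used here do not give the aligner, the counter or the strand setting. Beside the counts stand the authors' own log2 fold change, its standard error, a test score, a p-value and an adjusted p-value under DESeq2's column names, per the file headers, and a mean normalized signal that was not used.

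Samples were grouped by their labels. Replicate numbers follow the order of the records and pair nothing. Genes were tested with edgeR 4.0.16 in R 4.3.3 (filterByExpr, TMM, robust quasi-likelihood fit, Benjamini-Hochberg over 15287 genes), and an adjusted p under 0.05 was a call. CPM use TMM library sizes, and the standard error comes from the F statistic. No pair of libraries matched within sampling noise (smallest chi-square per degree of freedom 20.4). The scripts were tested on simulated data. At the dispersion estimated from these libraries, edgeR called 0% of 2-fold and 0% of 4-fold changes, so its 0 calls here do not show an absence of change. DESeq2 called 13% and 72% of them, but 68 of its 153 calls were false. With a lower dispersion of 0.04, edgeR called 73% and 100%. The cutoff of 3 counts for nearly absent genes was set by hand after the values were seen, and equals 0.208 to 0.296 CPM per library.

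The members and lists were chosen with earlier results of these data known. Genes in the text are the members, their paralogues, the 3 most abundant genes of each list and the 10 most like the members, and 1 gene of the neuroendocrine list is not reported here. Nkx2-5, Lipe and the genes listed by low counts in shControl replicate 2 were chosen after their values were seen. Alternatives were DESeq2 1.42.0, limma 3.58.1 voom with sample weights, other scalings and filters, leaving out each library, and summing shThoc1 replicates 2 and 3, whose titles share a first number.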

Additional observations from a re-analysis of the deposited data

How the results depend on the processing

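No paired analysis was possible because the labels give no number that ties a library of one group to a library of the other. No member was called in either direction under any alternative, over the 7 or 8 members that passed each filter. Over all genes, where edgeR called 0, DESeq2 called 929 and limma with sample weights 6853, with weights from 0.139 for shThoc1 replicate 2 to 4.42 for shThoc1 replicate 3, and leaving out 1 library gave 0 to 258, the last without shThoc1 replicate 2; the cause was not tested. The median log2 fold change of the members was 0.54 to 0.61 with other scalings, filters, DESeq2 or the summed libraries, and 1.14 with sample weights. Leaving out 1 library gave 0.0374 to 2.74. The log2 fold change turned round when libraries were left out for Myl4 (-0.28 to 2.74), Tnnt2 (-0.10 to 2.31) and Sln (-0.45 to 3.99). With no filter Nppa had 1.57 (adjusted p = 0.696 by edgeR). The TATA motif was in 3 members (Myh6, Actc1 and Nppa) when the search ran on past the start, over 300 bases in all. Nppa, and Myl7 and Sln in shControl replicate 2, rest on few reads, so their ratios there are known only within wide intervals.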
